A study of Homo sapiens with 6 samples.

Results

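C15orf48 and its paralogues NDUFA4 and NDUFA4L2 were followed in PC3 cells sorted for the surface receptor NRP2. These are 3 of the 27958 genes of a table of TPM values, in which read counts are divided by gene length and scaled to the same total in every library. They were taken by name. C15orf48 was selected on its measured fall in the TPM values of NRP2-high cells, so its difference between the groups is given as a description with no test, whereas NDUFA4 and NDUFA4L2 were included as its paralogues. The 3 genes passed the filter on low values (1 TPM or more in 3 or more libraries), C15orf48 through its NRP2-low libraries alone.

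PC3 is an androgen-independent human prostate cancer line that was derived from a metastasis in bone, and it was kept in the supplier's recommended medium at 5% CO2. Cells were stained with an NRP2 antibody and separated by flow cytometry into an NRP2-high and an NRP2-low population, grown on for at most 2 weeks and harvested for RNA at different passages. Each group had 3 libraries and neither carries an introduced allele or a drug treatment in the labels. Both groups come from a single line, and the labels do not state whether libraries of a group are separate sorts or cultures. The p-values therefore measure the spread between these samples alone, which may be technical.

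Cytochrome c oxidase, complex IV of the respiratory chain, passes electrons to oxygen in the inner mitochondrial membrane. NDUFA4 was first counted as a complex I subunit and is now placed in complex IV. C15orf48, also called NMES1 or MOCCI and first described in normal oesophageal mucosa, encodes a paralogue of NDUFA4 that is induced in inflamed cells and can take the place of NDUFA4 in complex IV, and its transcript also holds the precursor of the microRNA miR-147b, for which NDUFA4 is a known target. NDUFA4L2 encodes a further paralogue, known as a gene induced by hypoxia through HIF-1.

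Recovered from the TPM values, the reads assigned to genes were 17551302 to 30726744 per library. The sorting gene NRP2 was at 16.6 to 48.1 TPM in the NRP2-high libraries (named S38, S39 and S40) and at 2.71 to 7.55 TPM in the NRP2-low libraries (S35, S36 and S37), without overlap. Library S37 stood apart from the rest: mitochondrially encoded genes made up 31.0% of its TPM against 11.1% to 18.7% in the others, and the ratio of its level to the mean of S35 and S36 had a median of 0.766 over the 15214 genes tested. Within the NRP2-high group, S40 had the highest mitochondrially encoded share, 18.7%, and the lowest NRP2 level, 16.6 TPM against 42.5 TPM in S39 and 48.1 TPM in S38. Of the markers for the line, KRT18 was at 342 to 585 TPM and VIM at 442 to 1358 TPM. The epithelial markers EPCAM and KRT19 were at most 0.0726 and 0.0783 TPM.

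The link between the C15orf48 transcript and NDUFA4 can be read in sequence, and the microRNA and its match are shown for that reason. The hairpin of miR-147b lies on the plus strand at chr15:45433050-45433129 (GRCh38), in the last exon, exon 4 or 5, of 2 C15orf48 transcripts of GENCODE release 29, starting 34 bases after the stop codon and therefore in the 3′ UTR. A longer-spanning transcript of the gene does not hold it. The mature strand, from RefSeq (GRCh38.p14, chr15:45433098-45433118, plus strand), has its seed in capitals. The window of the NDUFA4 3′ UTR, from GENCODE release 29 (GRCh38, chr7:10933563-10933590, minus strand), has the complement of the seed in capitals.
hsa-miR-147b-3p: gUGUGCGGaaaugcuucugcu
NDUFA4 site: gaagccacatCCGCACAattttccactt
The match covers bases 56 to 62 of the 1685-base NDUFA4 3′ UTR and is followed by an A. This gives the 8-base form CCGCACAA, with the same 7 paired bases. The letters CCGCACA were found on the transcript strand in 2.57% of the 3′ UTRs of 14916 coding genes of the table, and CCGCACAA in 0.335%. Among the 2022 genes with a 3′ UTR of similar length, 1348 to 2022 bases, the shares were 2.57% and 0.445%. Neither was found in the 3′ UTRs of the longest coding transcripts of C15orf48 or NDUFA4L2. A match is a description of letters, and the microRNA itself was not analysed here.

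C15orf48 (ENSG00000166920.12, GRCh38, chr15:45430529-45448761, plus strand) was nearly silent in NRP2-high cells and well expressed in NRP2-low cells. Its level was 0.781 TPM in S38, 0.518 TPM in S39 and 0.232 TPM in S40, against 122 TPM in S35, 119.6 TPM in S36 and 134 TPM in S37. The 3 NRP2-low libraries were all above 119 TPM and the 3 NRP2-high libraries all below 1 TPM. The NRP2-high values rest on 6, 4 and 2 reads, whose 95% Poisson intervals (0.287 to 1.70, 0.141 to 1.33 and 0.0280 to 0.837 TPM) overlap, so differences within that group were not detectable at this depth. These intervals, like the others here, cover counting error only. In bulk RNA, fewer cells that express the gene and less RNA per cell cannot be told apart.

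Group means were 0.510 ± 0.275 TPM in NRP2-high libraries, against 125 ± 7.78 TPM in NRP2-low ones (SD, n = 3 each). The ratio of means was 245 times in favour of NRP2-low. Pooling the reads of each group, 12 against 3372, gave a ratio of 249.96 with an exact 95% counting interval of 143 to 484. On the log2 scale the ratio of means is -7.94, whereas the difference of log2(TPM + 1) is -6.40, because the pseudocount of 1 exceeds the NRP2-high values. On the log2(TPM + 1) scale it was the most negative of the 15214 differences, which is what it was picked for. Ratios of means were compared only with the 18 called members of the NF-kB list below, not across all genes. Among these C3 had a larger ratio, 292 times. IL1B, named after its values were seen, had 0 reads in NRP2-high libraries and so no defined ratio. By rank, C15orf48 stood above 94.8% to 96.6% of the table's genes in NRP2-low and above 31.9% to 43.9% in NRP2-high libraries.

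**Figure D1:**
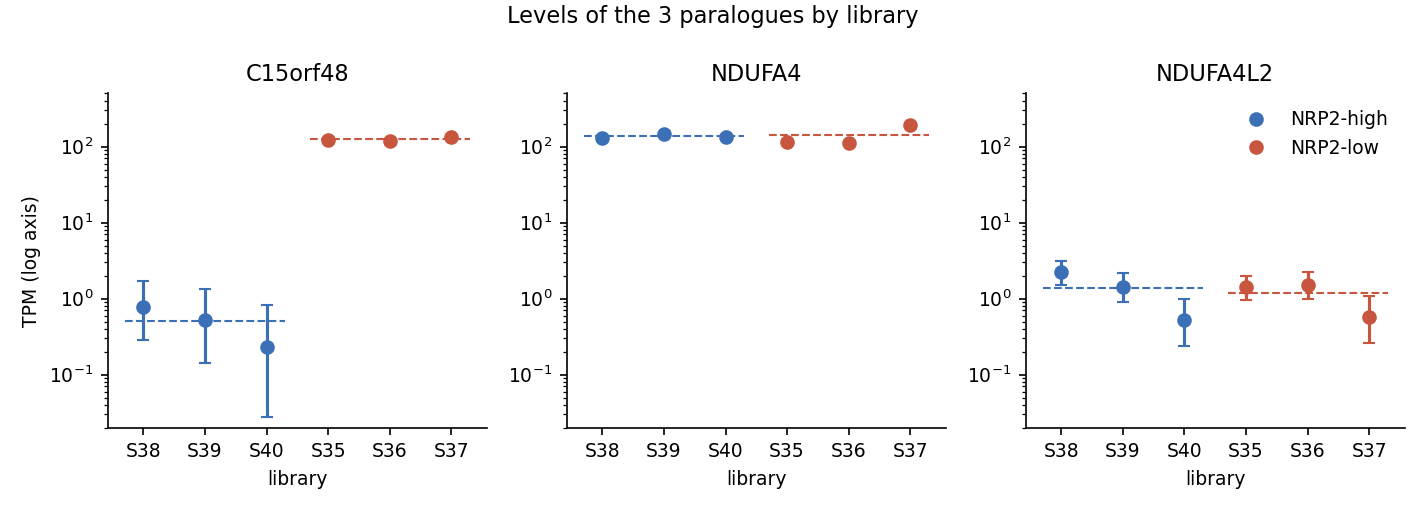
TPM of C15orf48, NDUFA4 and NDUFA4L2 (log axis) in each of the 6 libraries, with 95% Poisson intervals of the reads as bars and group means as dashed lines. C15orf48 lies below 1 TPM in the NRP2-high and above 119 TPM in the NRP2-low libraries, while the groups overlap for both paralogues.

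NDUFA4 (ENSG00000189043.9, chr7:10931951-10940256, minus strand), the standard subunit, did not differ beyond the spread between libraries. Its level was 132 TPM in S38, 148 TPM in S39 and 134 TPM in S40, against 114 TPM in S35, 112 TPM in S36 and 195 TPM in S37, on 2321 to 3867 reads. S37 had the highest level of the 6 libraries and S35 and S36 the lowest, so the groups overlapped. Means were 138 ± 9.06 TPM in NRP2-high libraries, against 140 ± 47.3 TPM in NRP2-low ones (SD, n = 3 each). The log2 fold change on the log2(TPM + 1) scale, NRP2-high minus NRP2-low, was 0.022 (SE 0.23, 95% interval -0.49 to 0.54, limma adjusted p = 0.991). A change of either sign lies within this interval. The sign itself turned when the values were scaled by the median log ratio of each library (-0.10) or rescaled without mitochondrially encoded genes (-0.068), and without S35 (-0.10), S36 (-0.12) or S39 (-0.031).

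The NRP2-low value of NDUFA4 depended on S37. Without that library the log2 fold change was 0.28 (95% interval 0.023 to 0.54, limma adjusted p = 0.622), with NRP2-high libraries at 1.22 times the mean of S35 and S36. S37 itself was at 1.73 times that mean, a ratio exceeded by 4.65% of the genes tested. That library also had the highest share of mitochondrially encoded transcripts, 31.0%, and the part of this in the level of NDUFA4 was not tested.

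NDUFA4L2 (ENSG00000185633.10, chr12:57234903-57240692, minus strand), the hypoxia-induced paralogue, was low in both groups. Its level was 2.22, 1.43 and 0.522 TPM in S38, S39 and S40 and 1.41, 1.53 and 0.575 TPM in S35, S36 and S37, on 9 to 34 reads. In each group 1 library, S40 and S37, lay well below the other two. Means were 1.39 ± 0.848 and 1.17 ± 0.520 TPM (SD, n = 3 each), with a log2 fold change of 0.10 (SE 0.35, 95% interval -0.70 to 0.90, limma adjusted p = 0.968). The sign turned without S38 (-0.15) or S37 (-0.11). The last 29 bases of its span overlap SHMT2 on the opposite strand, a gene of mitochondrial serine metabolism at 92.8 to 167 TPM. The sources used here do not say whether the counting kept strand, so reads in that stretch could come from either gene.

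TPM is given per gene length, so the 3 paralogues can be set against each other within a library. The ratio of C15orf48 to NDUFA4 was 0.00593, 0.00349 and 0.00173 in S38, S39 and S40 and 1.07, 1.07 and 0.688 in S35, S36 and S37. In NRP2-low cells the inducible paralogue was thus listed at about the level of the standard subunit, slightly above it in S35 and S36 and below it in S37. In NRP2-high cells it was listed at less than a hundredth of it. Means of the ratio were 0.00372 ± 0.00211 and 0.942 ± 0.220 (SD, n = 3 each). The ratio holds C15orf48 and is a description with no test.

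The level of this ratio depends on the lengths used. The table's lengths, 1405 bases for C15orf48 and 3556 bases for NDUFA4, are longer than the longest coding transcripts of GENCODE release 29, 875 and 2130 bases. With transcript lengths the mean ratio in NRP2-low was 0.906, and as a plain ratio of reads it was 0.372. The NRP2-high mean was 0.00358 and 0.00147 in the same order.

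The summed level of the 3 genes was 135, 150 and 134 TPM in S38, S39 and S40 and 238, 233 and 330 TPM in S35, S36 and S37. Between the group means, the difference in this sum was nearly all C15orf48. That gene was 51.3%, 51.3% and 40.7% of the sum in the NRP2-low libraries and 0.172% to 0.580% in the NRP2-high libraries. NDUFA4 made up 97.8% to 99.4% of the sum in NRP2-high libraries and 59.1% or less in NRP2-low libraries. NDUFA4L2 was 1.65% of it or less in every library. NDUFA4 lay below its NRP2-high levels in S35 and S36 and above them in S37, so in S37 NDUFA4 also added to the higher sum.

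**Figure D2:**
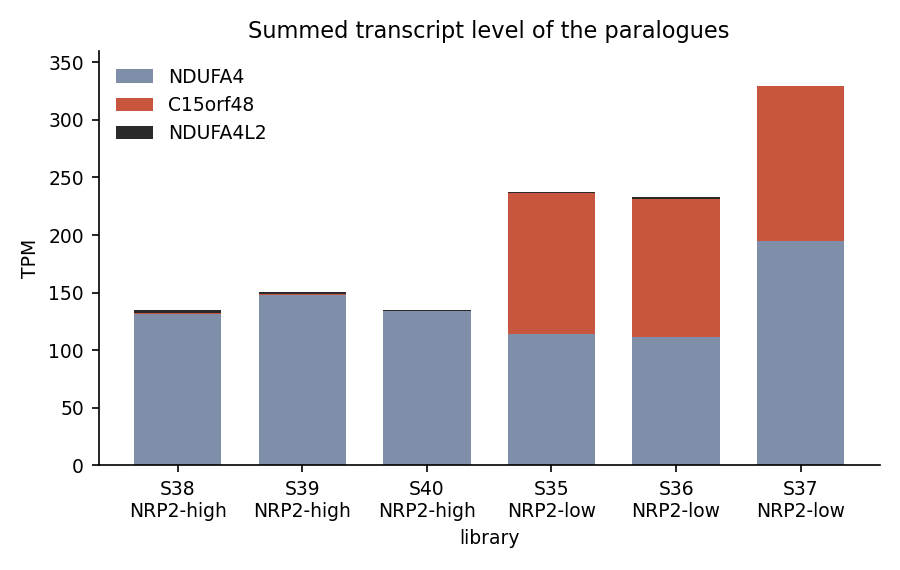
Stacked TPM of NDUFA4, C15orf48 and NDUFA4L2 in each library. The sum is 134 to 150 TPM in NRP2-high libraries, nearly all NDUFA4, and 233 to 330 TPM in NRP2-low libraries, of which C15orf48 is 40.7% to 51.3%.

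The coding sequences were compared, since near-identical copies can share reads. C15orf48, NDUFA4 and NDUFA4L2 code for 83, 81 and 87 residues. In global alignments of the coding bases C15orf48 was identical to NDUFA4 at 49.4% of 235 aligned bases and to NDUFA4L2 at 55.0% of 238, and NDUFA4L2 was identical to NDUFA4 at 63.4% of 246. The longest run of identical bases between any pair was 14. NDUFA4 has processed pseudogenes elsewhere in the genome, which were not analysed here, so reads divided between them and the gene would not be seen.

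The proximal promoters are shown because the level of C15orf48 differed widely between the groups and that of NDUFA4 overlapped. Both are from RefSeq (GRCh38.p14), 250 bases before to 50 after the annotated start. RefSeq lists C15orf48 as COXFA4L3 (chr15:45430360-45430659, plus strand) and NDUFA4 as COXFA4 (chr7:10940104-10940403, minus strand). Capitals mark TATAA and a loose form of the sites bound by NF-kB, which is GGG, any 5 bases and CC, each searched on both strands.
C15orf48 promoter: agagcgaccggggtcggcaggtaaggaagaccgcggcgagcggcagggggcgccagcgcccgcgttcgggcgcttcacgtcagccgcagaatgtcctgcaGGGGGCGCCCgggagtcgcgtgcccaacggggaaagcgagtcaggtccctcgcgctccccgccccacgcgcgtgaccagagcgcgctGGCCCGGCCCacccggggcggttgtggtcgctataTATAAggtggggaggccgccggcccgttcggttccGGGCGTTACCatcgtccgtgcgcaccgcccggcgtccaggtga
NDUFA4 promoter: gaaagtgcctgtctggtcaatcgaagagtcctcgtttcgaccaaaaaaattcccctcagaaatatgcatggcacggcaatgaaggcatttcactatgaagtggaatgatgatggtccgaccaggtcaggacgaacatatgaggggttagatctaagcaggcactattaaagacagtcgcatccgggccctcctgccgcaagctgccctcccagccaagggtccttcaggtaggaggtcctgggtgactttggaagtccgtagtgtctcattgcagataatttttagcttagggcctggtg
The C15orf48 window holds TATAA starting at position -28 from the RefSeq start site, a place where such boxes are usually found, and the NDUFA4 window holds none. The span of C15orf48 given above begins at chr15:45430529, inside this window and before the TATAA, so the annotations place the start of the gene differently. TATAA occurs in 20.4% of 35116 promoter windows. The loose NF-kB form occurs at 3 places of the C15orf48 window, 1 of them on both strands, at none of the NDUFA4 window, and in 58.7% of all windows, so it is common. The NDUFA4L2 windows, not shown, also hold it, as GGGTTTGTCC and GGGCGTTTCC, and NDUFA4L2 was not called between the groups. The C15orf48 window is 73.3% G and C with 45 CpG dinucleotides and that of NDUFA4 50.7% with 10, against a median of 58.7% G and C.

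The coding genes next to C15orf48 did not share its pattern at the size seen for it. SPATA5L1, a gene of the AAA ATPase family ending 9110 bases before it on the same strand, was at 7.89, 8.07 and 8.26 TPM in S38, S39 and S40 against 10.7, 10.5 and 9.26 TPM in S35, S36 and S37 (log2 fold change -0.29, SE 0.18, limma adjusted p = 0.870), lower in all 3 NRP2-high libraries. The zinc transporter gene SLC30A4, 30850 bases after it, was at 5.90 ± 0.960 against 5.59 TPM in the mean. GATM, an enzyme of creatine synthesis, was at 0.432 TPM or less in every library. AC025580.2, a noncoding gene on the same strand whose span overlaps the far end of the longer-spanning C15orf48 transcript by 335 bases, had 31 reads over the NRP2-low and 1 read over the NRP2-high libraries, at most 0.494 TPM. Reads of the 2 genes in that stretch cannot be told apart. Beside NDUFA4, the chromatin gene PHF14 had a log2 fold change of -0.08 (SE 0.21, limma adjusted p = 0.961).

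The other subunits of complex IV showed no difference of this kind. Of the 15214 genes tested, 127 passed a limma adjusted p of 0.05, which is 0.835%, and 74 of them (0.486%) were lower in NRP2-high cells. At an unadjusted limma p under 0.05 there were 1065 of the 15214. Of the 11 nuclear-encoded subunits tested 0 passed, also 0 at an unadjusted p under 0.05. At the table-wide share few or none would be found in lists as short as this one and those below. Their log2 fold changes ran from -0.29 to 0.092 with a median of -0.037, beside 0.10 for all genes tested. COX7C and COX8A, the most abundant, were at 349 ± 33.7 and 335 ± 9.61 TPM in NRP2-high libraries, against 358 ± 36.1 and 321 ± 11.4 TPM in the other group (SD, n = 3 each). COX6B1 followed at 272 to 302 TPM against 259 to 288 TPM.

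Complex IV has several other subunits with alternative isoforms, and the widely expressed forms were read in both groups, with 0 of them called in limma and 0 at an unadjusted p under 0.05. COX4I1 was at 256 ± 17.3 against 240.0 ± 7.53 TPM, COX6A1 at 126 ± 11.1 against 132 ± 5.39 TPM, COX7A2 at 171 ± 10.8 against 190 ± 45.9 TPM, COX7A2L at 67.3 ± 9.29 against 66.1 ± 1.52 TPM and COX7B at 124 ± 10.5 against 141 ± 39.7 TPM (SD, n = 3 each). The testis-type isoforms COX6B2 and COX8C were at 0.191 and 0.643 TPM or less in every library. COX4I2, COX6A2, COX7A1 and COX7B2 were not analysed here. By level, C15orf48 exceeded 3, 4 and 3 of the 11 nuclear subunits in S35, S36 and S37, and 0 in each NRP2-high library.

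**Figure D3:**
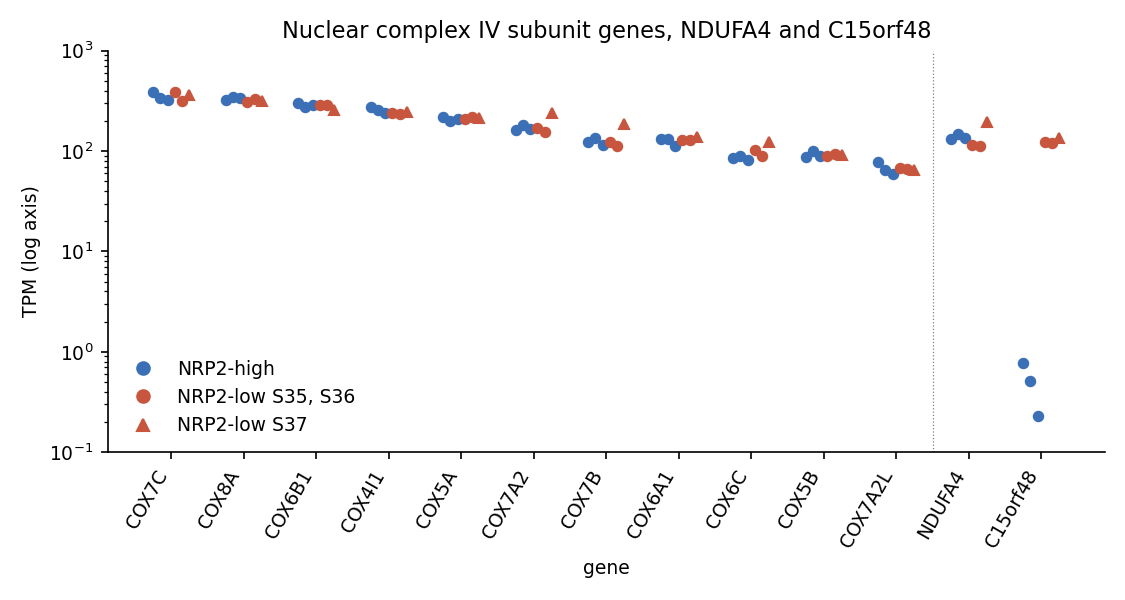
TPM (log axis) of the 11 tested nuclear complex IV subunit genes, ordered by mean level, and of NDUFA4 and C15orf48, in each library; triangles mark S37. C15orf48 alone of those plotted changes by orders of magnitude, and in NRP2-low libraries it reaches the level of NDUFA4 and of the lower subunits.

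Set against these subunits within each library, NDUFA4 again overlapped between the groups. The difference of log2 NDUFA4 from the mean log2(TPM + 1) of the 11 subunits was -0.38, -0.20 and -0.24 in S38, S39 and S40 and -0.57, -0.54 and 0.090 in S35, S36 and S37. S35 and S36 were the lowest and S37 the highest of the 6. Means were -0.27 ± 0.095 and -0.34 ± 0.37 (SD, n = 3 each), a difference of 0.065 with a two-sided exact permutation p of 0.8, where 0.1 is the smallest that 3 against 3 allows. Without S37 the difference was 0.28, at the smallest p of that design, 0.1. The difference turned below 0 without S35 (-0.049) or S36 (-0.035).

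S37 was also high in some other small subunits of the chain. Its level over the mean of S35 and S36 was 1.58 for COX7B, 1.48 for COX7A2 and 1.28 for COX6C, and 7 of the 11 nuclear complex IV subunits were above 1, with a median of 1.03. The 3 mitochondrially encoded subunits were at 2.09 to 2.22 times, and C15orf48 at 1.11 times. The NRP2-high libraries were at 38586 to 72976 TPM for the sum of MT-CO1, MT-CO2 and MT-CO3 and the NRP2-low libraries at 49462 to 116470 TPM. Of these 3 genes 0 passed the limma threshold, also 0 at an unadjusted p under 0.05.

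Of 25 tested assembly factors of complex IV 0 passed, also 0 at an unadjusted p under 0.05, with a median log2 fold change of -0.049. HIGD2A, HIGD1A and LRPPRC, which act in the assembly of the complex or in the stability of its mitochondrial messages, had the highest levels at 219 ± 22.5, 186 ± 14.2 and 104 ± 4.44 TPM in NRP2-high cells and 204 ± 7.31, 193 ± 11.4 and 94.9 ± 24.0 TPM in NRP2-low cells (SD, n = 3 each). Of the 12 tested complex I subunits named NDUFA, the family to which NDUFA4 was first assigned, 0 passed, also 0 at an unadjusted p under 0.05. Their median was -0.089, and NDUFA1, NDUFA6 and NDUFA8 had log2 fold changes of -0.20, -0.11 and -0.067.

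HIF-1 targets, the group to which NDUFA4L2 belongs, showed no called member either. Of 22 tested 0 passed in limma, also 0 at an unadjusted p under 0.05, with a median log2 fold change of 0.032, or -0.19 without S37. The glycolytic enzymes LDHA and PGK1 were at 1583 ± 74.9 and 471 ± 31.2 TPM in NRP2-high cells, against 1494 ± 485 and 432 ± 129 TPM, and the transcription factor BHLHE40 was at 305 ± 64.8 against 234 ± 97.3 TPM (SD, n = 3 each). CA9, a strongly hypoxia-dependent carbonic anhydrase gene, was at 0.436 TPM or less in every library.

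Of the genes that NF-kB and interleukin-1 induce in other cells, as they do C15orf48, many but not all were called lower in NRP2-high cells. Of 25 tested members of such a list 18 were lower and 0 higher in limma, beside 0.486% lower among all genes tested, and 7 did not pass. Of the 18, 7 were under 1 TPM in every NRP2-high library and so passed the filter through NRP2-low libraries alone, which fixed their direction. With these 7, 10 were under 1 TPM in some NRP2-high library and so could not pass without NRP2-low libraries. The median of the 25 log2 fold changes was -2.25 (-2.37 to -1.99 when 1 library was dropped), -4.01 with a pseudocount of 0.1 and -1.62 over 31 members with no filter. Of the 25, 24 had a log2 fold change below 0 and 21 were at an unadjusted limma p under 0.05, beside 1065 of the 15214 genes tested. The 7 that did not pass, named after their values were seen, were TNFAIP3, ZC3H12A, RELB, NFKBIZ, NFKB1, NFKB2 and PTGS2. Their log2 fold changes were -1.57, -0.86, -0.82, -0.47, -0.30, -0.29 and 0.067 in that order. Many genes of the list were known to be lower in these data when it was written, so the count is not independent evidence of the direction. The members with the largest differences were complement C3 (0.367 ± 0.202 against 107 ± 40.4 TPM, log2 fold change -6.24), the cytokine gene IL6 (1.44 ± 0.447 against 162 ± 63.7 TPM, -5.99) and the chemokine genes CXCL1 (23.9 ± 2.14 against 1069.5 ± 158 TPM, -5.42) and CXCL8 (19.6 ± 9.33 against 698 ± 232 TPM, -5.14), with n = 3 each. Of these, C3 was under 1 TPM in every NRP2-high library and IL6 was at 0.968 TPM in S39, so both needed NRP2-low libraries to pass the filter. The count of lower members was 12 to 16 with a library left out, lowest without S36, and 11 of 31 tested members when no filter was applied.

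**Figure D4:**
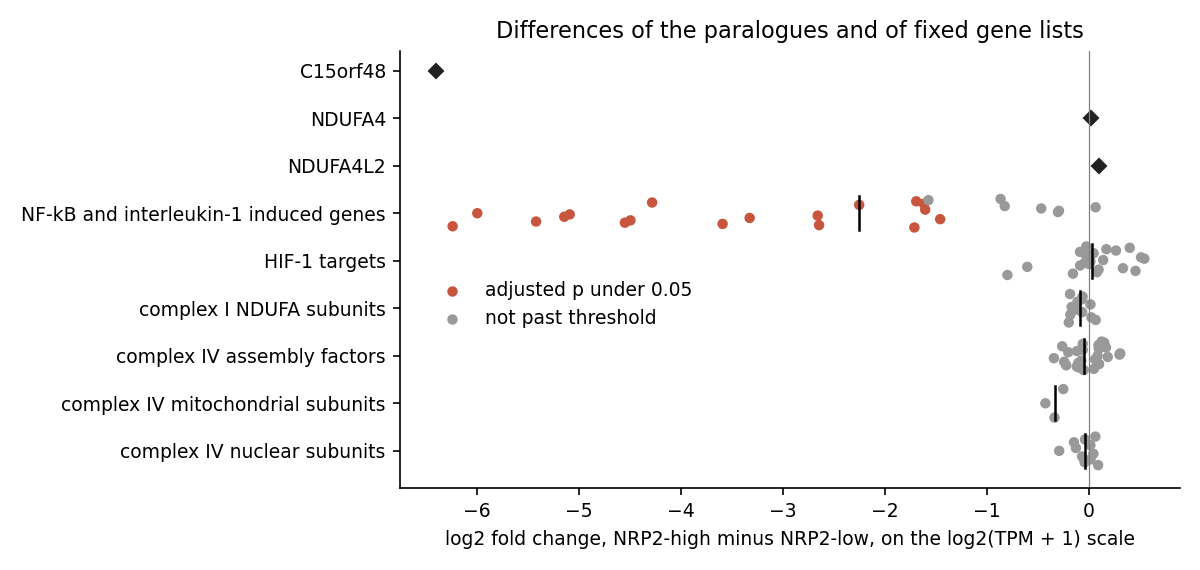
Log2 fold change, NRP2-high minus NRP2-low on the log2(TPM + 1) scale, of the 3 paralogues (diamonds) and of the tested members of 6 gene lists (points; black bars are list medians, red points passed a limma adjusted p of 0.05). C15orf48 is at -6.40 and the NF-kB and interleukin-1 list at a median of -2.25, while respiratory chain, assembly and HIF-1 genes lie around 0.

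The spread of C15orf48 within NRP2-low cells depended on the scaling. Its coefficient of variation over S35, S36 and S37 was 6.21%, against 5.96% to 68.5% for the 18 list members called lower in NRP2-high cells. Of these, 1 had a smaller coefficient (BIRC3, an apoptosis inhibitor, named after its values were seen). The mean level of C15orf48 in NRP2-low, 125 TPM, was exceeded by 4 of the 18. After scaling by the median log ratio of each library, an alternative added after seeing the data, its coefficient was 22.2% and 6 of the 18 were lower. The coefficient rests on 3 libraries per gene.

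The 6 protein-coding genes with the pattern most like that of C15orf48 were ranked by Pearson's r of log2(TPM + 1) over the 6 libraries, among 9470 genes with a mean TPM of at least 5. They were CXCL1 (r = 0.999), CSF3 (0.997), TGFA (0.995), PDZK1IP1 (0.994), IL6 (0.992) and CXCL6 (0.992). As each differs between the groups and C15orf48 was picked for its fall, r mostly reflects that difference, and it is given as a description. TGFA, PDZK1IP1, IL6 and CXCL6 had NRP2-high means under 5 TPM, so they reached the cut through NRP2-low libraries. PDZK1IP1, at 0.113 to 0.127 TPM in the NRP2-high libraries, also passed the filter on low values through NRP2-low libraries alone. CSF3, which encodes a growth factor of granulocytes, was at 9.31 ± 2.22 against 238 ± 36.8 TPM. TGFA, which encodes an EGF receptor ligand, was at 1.40 ± 0.307 against 47.4 ± 9.25 TPM. PDZK1IP1, which encodes a small membrane protein, was at 0.122 ± 0.00795 against 17.1 ± 4.10 TPM, and the chemokine gene CXCL6 at 0.715 ± 0.473 against 15.7 ± 1.21 TPM (SD, n = 3 each).

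NDUFA4 was most like a different set. The same ranking gave POLR2K (r = 0.995), HINT1 (0.993), ITGB3BP (0.975), PRDX4 (0.973), TMEM258 (0.971) and OSTC (0.956), which encode an RNA polymerase subunit, a nucleotide hydrolase, a centromere protein, a peroxiredoxin and 2 subunits of the oligosaccharyltransferase complex. Each had its highest level in S37, with HINT1 at 271 TPM there against 207 to 239 TPM elsewhere. Over the 5 libraries without S37, r was lowest for OSTC among these genes, at 0.822, and it was 0.988 for POLR2K.

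Coding genes with the same 8-base match to miR-147b as NDUFA4 were compared as a group, a set chosen after the data were known. Of 40 tested genes with CCGCACAA in the 3′ UTR 0 passed the limma threshold, with 2 at an unadjusted p under 0.05. Among all 10990 tested coding genes with a 3′ UTR, 724 were under that unadjusted p. The median log2 fold change was 0.12 for the 40 genes, beside 0.11 for the 10990. Without S37 the medians were -0.032 and -0.0071. Of the 298 genes with the 7-base match 3 were higher and 0 lower (1.01%), beside 0.892% called in either direction among all 10990, with a median of 0.13. Genes with a match have longer 3′ UTRs, with a median of 2632 bases for the 8-base match against 1344.5 bases for all.

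Markers of other cells that express C15orf48 were near 0. No leukocyte marker passed the filter, and 10 of the 14 could be read. Their summed level was 0.331 to 1.37 TPM in NRP2-high libraries, against 1.69 to 2.40 TPM in NRP2-low ones, without overlap, so this sum was higher where C15orf48 was higher, and its part in that was not tested. PTPRC, the pan-leukocyte marker CD45, was at 0.0397 TPM or less in every library. LYZ, CD68 and SPI1 were at 0 in each NRP2-low library. ITGAM and CSF1R went the other way, with 26 and 3 reads over the NRP2-low libraries against 6 and 0 over the NRP2-high libraries. The sum in NRP2-low came mostly from CD14 (up to 1.52 TPM) and LAPTM5 (up to 1.48 TPM). Of 14 markers of squamous mucosa 6 could be read, at a summed 0.780 to 1.23 TPM in NRP2-high libraries, against 1.01 to 1.67 TPM in NRP2-low ones, most of it TGM1, and the basal marker TP63 was at 0 in NRP2-high and at 0.0722 to 0.161 TPM in NRP2-low libraries.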

How the data were processed

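RNA sequencing of 6 libraries (3 NRP2-high, 3 NRP2-low) was analysed. The authors deposited TPM values per gene, beside each gene's position and length. The build was hg38 (GRCh38.p12) and the named tools include featureCounts 1.5.2 and DESeq2 1.20.0, without their roles, per the submitters' processing notes. The aligner and strand setting were not given in the sources used here. Libraries were tied to groups by the group word of their column, and S numbers name them.

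In each library TPM was multiplied by gene length and the lowest product above 0 taken as 1 read, which gave whole numbers for 100% of non-zero values (tolerance 0.001). These gave reads per gene and, in sum, the reads assigned to genes in each library, used as depth. Genes at 1 TPM or more in 3 or more libraries were tested, 15214 in all, on log2(TPM + 1) with limma 3.58.1 in R 4.3.3 (mean-variance trend, group only, two-sided, Benjamini-Hochberg over all tested genes, threshold 0.05). TPM is a share, so a rise of mitochondrial transcripts lowers other values. Scaling by the median log ratio moved the median log2 fold change of all genes from 0.10 to -0.01.

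Members and lists were chosen with earlier results of these data known. Named genes are the members, complex IV isoform pairs, neighbours, up to 4 called or 3 most abundant members of each list, and the 6 most similar patterns. Libraries within a group differed by a chi-square per gene of 21.6 to 110.7, so all were kept. The highest values were those of S37 against S35 (110.7) and S36 (90.5) and of S40 against S38 (87.1). Alternatives were another pseudocount, filter, scaling or trend, and leaving out each library. Python 3.11.15, pandas 2.3.3 and Biopython 1.88 were used.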

Additional observations from a re-analysis of the deposited data

How the results depend on the processing

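No paired analysis was possible because the columns carry no replicate numbers, so the fit with replicates as a block was not run. NDUFA4 and NDUFA4L2 missed the threshold under all 11 other settings. The NDUFA4 log2 fold change turned to -0.068 without mitochondrially encoded genes and -0.10 with median log ratio scaling, and ran from -0.12 to 0.28 with a library left out. That of NDUFA4L2 ran from -0.15 to 0.39, and NDUFA4 relative to nuclear complex IV subunits from -0.049 to 0.28. For C15orf48 the difference was -7.79 with a pseudocount of 0.1 and -6.65 without mitochondrially encoded genes, and -6.53 to -6.26 with a library left out. Its ratio to NDUFA4 in NRP2-low was 0.372 from plain reads, and 0.878 to 1.07 with a library left out. With transcript lengths, an alternative chosen after seeing the data, it was 0.906. No row of NDUFA4 pseudogenes was used. The table-wide count of 127 was 74 with no filter and 43 to 97 with a library left out (73 when S35 was dropped, 69 for S38, 54 for S39 and 43 for S36). The NF-kB and interleukin-1 count was 11 with no filter. The cause of these moves was not tested. Depth limits C15orf48 in NRP2-high (2 to 6 reads) and NDUFA4L2 (9 to 34 reads).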
